A study of Drosophila melanogaster with 6 samples.

Results

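Ribosome biogenesis factors are the nuclear and nucleolar proteins that make ribosomal RNA and assemble it into ribosomal subunits. From a list of 39 named Drosophila genes, 38 were found by symbol in the annotation of the 17559 genes that each count table lists. Noc4 matched no symbol and is not analysed here. The genes were chosen with mutant against control results of these same libraries known. Their fold changes between the groups are therefore given as a description, without p-values for single members.

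The series asks what less nuclear actin does to transcription during oogenesis. Poly(A) RNA from dissected ovaries of flies kept at 25 °C was sequenced in 6 libraries. The 3 mutant libraries came from females with the RanBP9 allele D1 over the deficiency chromosome BSC469, and the 3 control libraries from females with the w1118 chromosome over BSC469, so both groups carried the deficiency. RanBP9 is an older name of Ipo9, the gene of Importin-9, which carries actin into the nucleus. The labels do not say whether the replicates were separate crosses or dissections, so the tests measure the spread between these libraries, which may be technical. Whole ovaries hold egg chambers of many stages, and in bulk RNA fewer cells of a type and less RNA per cell cannot be told apart.

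Ribosome synthesis starts in the nucleolus, where RNA polymerase I copies the ribosomal DNA. Small nucleolar ribonucleoproteins (snoRNPs) modify the transcript, and GTPases, helicases and scaffold proteins then fold, cut and carry the small and large subunit precursors out of the nucleus. In the fly ovary, nurse cells make most of the ribosomes that the egg receives, and germline stem cells need active ribosome production to keep dividing and differentiating. Myc, a growth-promoting transcription factor, is known to raise the expression of many nucleolar genes in flies.

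Across the libraries, total counts ranged from 21583524 to 26483578. Ipo9, the targeted gene, had 1980 to 2513 counts in mutant and 2733 to 3375 in control libraries, without overlap after scaling. Its log2 fold change was −0.47 (SE 0.12), short of the threshold at 0.0544 for edgeR's adjusted p. The ovary label fitted the markers: 17 germline genes summed to 6053 to 6299 CPM (counts per 1000000 reads, scaled between libraries) in mutant and 6098 to 6463 in control libraries, with cup listed at 0. Of 12 testis genes, 7 were at 0 in all libraries, among them Mst84Da, dj and ProtA, and the list summed to 25.6 to 30.9 CPM in mutant and 18.9 to 21.0 in control libraries. Nearly all of that sum was bol, which was called higher, with means of 25.7 CPM in the mutant and 17.4 CPM in the control group (log2 fold change 0.56). The sums of muscle, hemocyte and fat body markers overlapped between the groups and 0 of these genes were called. All 12 tested muscle genes were above 0 on the log2 scale, and the muscle list summed to 162 to 303 CPM with the mutation and 141 to 246 without. Its part in the results was not tested.

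All 38 factors had enough reads to be tested, with 476 to 25603 counts per gene and library. The edgeR fit over 8110 genes placed 21 of the 38 past an adjusted p of 0.05 as higher in the mutant ovaries and 0 as lower; 0 were lower at an unadjusted p under 0.05 or in DESeq2 and limma-voom either. Over all genes tested, 8.31% were called higher and 6.20% lower, and since the members were chosen with this contrast known, nothing is read from the difference. The median log2 fold change of the 38 was 0.18, a fold of 1.13, beside −0.0033 over all genes tested. The values ran from −0.05 for Tif-IA to 0.31 for pths, with standard errors between 0.04 and 0.07. In 30 of the 38 every mutant library lay above every control library, in 0 the reverse, and in 8 the groups overlapped, beside 18.4% of all genes tested with mutant libraries above and 16.5% below. The differences were small, at most 1.24-fold, and the replicates were close: the SD was 0.832% to 7.25% of the mean in the mutant group and 0.574% to 8.36% in the control group.

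**Figure D1:**
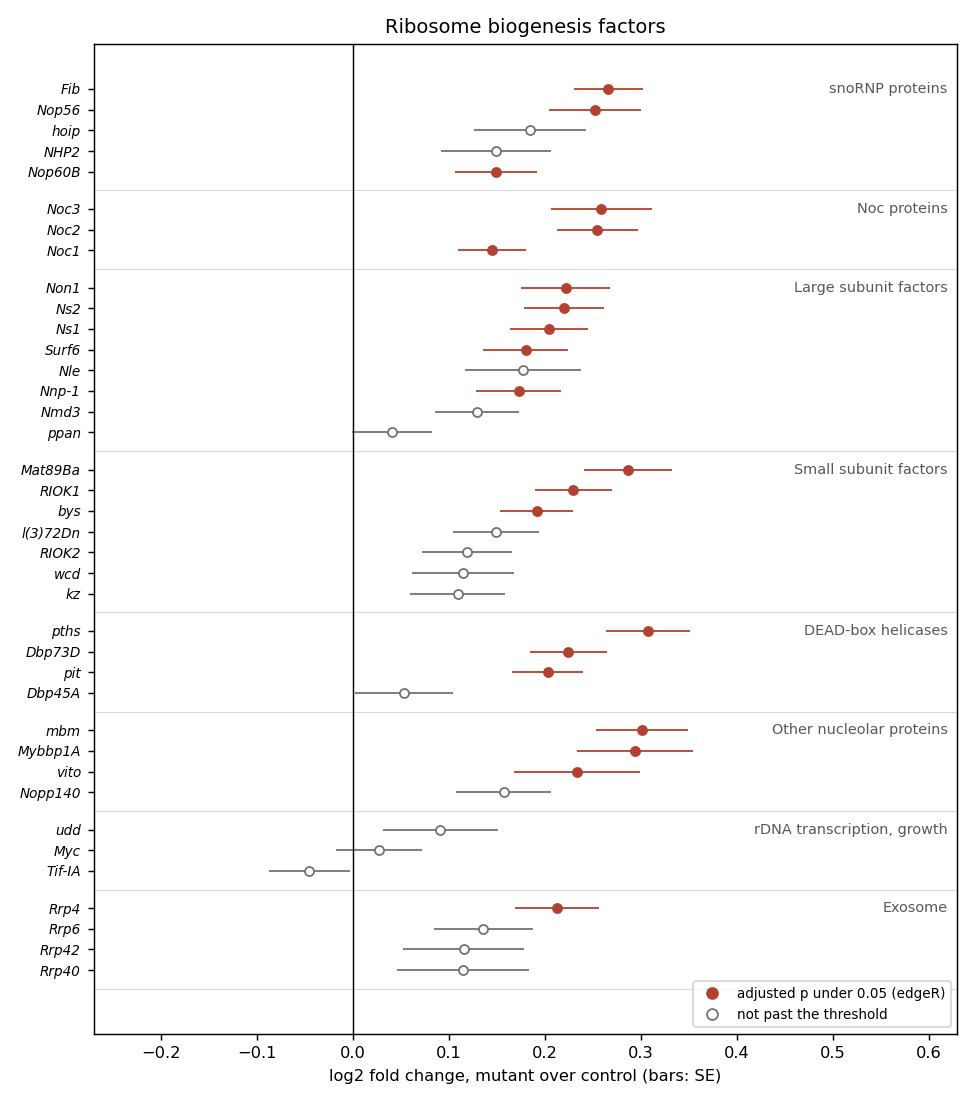
Log2 fold change (x axis, mutant over control) of the 38 ribosome biogenesis factors (y axis, grouped by role), from 3 libraries per group; bars are standard errors, and filled points passed an adjusted p of 0.05 in edgeR. Of the 38 points, 37 lie above 0, and the 3 genes of rDNA transcription and growth control lie nearest to 0 as a group, with a median of 0.03.

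The snoRNP proteins take part in the chemical modification of ribosomal RNA. Fib, or fibrillarin, is the methyltransferase of the box C/D particles, and it lies at 23072909 to 23074725 on the minus strand of 2R (BDGP6, dm6; coordinates throughout are as in the count tables, counted from 1). Its scaled levels were 327, 326 and 321 CPM in mutant replicates 1, 2 and 3 and 270, 265 and 274 in control replicates 1, 2 and 3. The means of Fib were 325 ± 2.70 and 270 ± 4.62 CPM (SD, n = 3 each), a log2 fold change of 0.27 (SE 0.04), and the groups were far apart beside their spread. Nop56, a core protein of the same particles, was at 362, 385 and 347 CPM in the mutant and 294, 312 and 313 in the control libraries. That was 0.25 on the log2 scale (SE 0.05), again with every mutant library above every control library.

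Nop60B, the pseudouridine synthase of the box H/ACA particles, had the most reads of the 38. Its levels were 1001, 1086 and 1066 CPM in the mutant and 958, 945 and 941 in the control libraries, a log2 fold change of 0.15 (SE 0.04). Mutant replicate 1 was the lowest of its group and still above all controls. Its exons share strand and position with 6 snoRNA genes, all at 0 counts, which leaves the value uncertain. Hoip, a small RNA-binding protein shared by box C/D particles and the spliceosome, is encoded by the factor gene with the most reads per length. The gene hoip was at 373, 414 and 374 CPM in the mutant and 341, 318 and 362 in the control libraries (0.18, SE 0.06), without overlap but short of the threshold. NHP2, another H/ACA protein gene, averaged 137 ± 6.90 CPM with the mutation and 124 ± 8.52 without, and its groups overlapped through control replicate 3 at 133.

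The Noc proteins form pairs that accompany subunit precursors from the nucleolus to the pores, as known from yeast. All 3 that were measured were called higher. Noc2 stood at 254, 264 and 260 CPM in the mutant and 209, 227 and 217 in the control libraries (log2 fold change 0.25, SE 0.04). Noc3 had 131, 128 and 121 CPM against 104, 113 and 101 (0.26, SE 0.05), and Noc1 had 229, 234 and 230 against 211, 209 and 207 (0.14, SE 0.04). Noc1 combined a small shift with very even replicates, at an SD of 2.70 CPM in mutant and 1.81 in control ovaries. None of the 3 had overlapping groups.

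Among the 8 large subunit factors, 5 were called higher and 0 lower, with a median log2 fold change of 0.18. Non1, a nucleolar GTPase, was the most abundant of them per length. It was at 742, 710 and 732 CPM in the mutant and 636, 648 and 589 in the control libraries, a log2 fold change of 0.22 (SE 0.05). The nucleostemin family GTPase genes Ns1 and Ns2 showed shifts of like size. For Ns1 the mutant libraries had 151, 153 and 145 CPM and the control libraries 132, 126 and 131 (0.20, SE 0.04). Ns2 was at 136, 138 and 129 against 113, 119 and 115 CPM (0.22, SE 0.04). Both pairs of groups were separate.

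Nnp-1, the relative of a yeast large subunit processing factor, was at 233, 256 and 237 CPM in the mutant and 212, 218 and 215 in the control libraries (0.17, SE 0.04). Mutant replicate 2 was the high one. Surf6, a nucleolar RNA-binding protein gene, was at 124, 135 and 133 against 115, 114 and 117 CPM (0.18, SE 0.04), and it is uncertain because it shares exon sequence with ClpX, read in the same direction. The 3 that did not pass were Nle, a WD-repeat protein gene (0.18, SE 0.06), Nmd3, which encodes the export adaptor of the large subunit (0.13, SE 0.04), and ppan, the gene peter pan, needed for larval growth (0.04, SE 0.04). The groups of ppan overlapped, at 69.4 to 73.1 CPM in mutant and 68.0 to 69.8 in control libraries, while those of Nle and Nmd3 did not.

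The 7 small subunit factors had 3 called higher and 0 lower, with a median of 0.15. Mat89Ba, the relative of human NOL6 in the early small subunit precursor, lies at 16268329 to 16272415 on 3R. It was at 128, 128 and 125 CPM in the mutant and 103, 110 and 99.0 in the control libraries, a log2 fold change of 0.29 (SE 0.05). RIOK1, a kinase gene of late small subunit maturation, was at 83.2, 80.1 and 82.9 against 71.1, 69.6 and 69.2 CPM (0.23, SE 0.04). Its groups were separate by more than the range of either. The gene bys, for bystin, was at 106, 110 and 107 against 95.1, 94.2 and 94.2 CPM (0.19, SE 0.04), and its control SD of 0.542 CPM was the smallest of the 38 relative to its mean, at 0.574%.

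The other 4 small subunit genes lay between 0.11 and 0.15 and did not pass. They were l(3)72Dn, a relative of yeast UTP4 (0.15, SE 0.04), RIOK2, the sister kinase gene of RIOK1 (0.12, SE 0.05), wcd, a processing factor gene needed in female germline stem cells (0.11, SE 0.05), and kz, an RNA helicase gene (0.11, SE 0.05). Of these, wcd had overlapping groups, through control replicate 2 at 65.7 CPM and mutant replicate 3 at 64.8.

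DEAD-box helicases unwind RNA within the precursors. The gene pths, for Porthos, had the highest log2 fold change of the 38, and it lies at 21143229 to 21145146 on 2L. It was at 186, 201 and 204 CPM in the mutant and 161, 157 and 160 in the control libraries, with means of 197 ± 9.35 and 159 ± 2.04, and a log2 fold change of 0.31 (SE 0.04), which is 1.24-fold. The gap between the groups was wider than the spread in either. Dbp73D was at 88.3, 87.3 and 89.6 against 73.7, 75.6 and 77.6 CPM (0.22, SE 0.04), and pit, or pitchoune, which is known to act downstream of Myc in flies, at 212, 212 and 206 against 180, 181 and 187 (0.20, SE 0.04). Dbp45A was at 49.4 ± 1.79 against 47.6 ± 1.52 CPM (0.05, SE 0.05), with overlapping groups.

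Of the other nucleolar proteins, mbm, or mushroom body miniature, known for small subunit production in fly neuroblasts, lies at 271912 to 273715 on 2L. It was at 164, 183 and 169 CPM in the mutant and 140, 142 and 136 in the control libraries (0.30, SE 0.05). Mybbp1A, a gene for a Myb-binding nucleolar protein at 629773 to 633633 on X, was at 119, 116 and 104 against 94.3, 95.4 and 86.5 CPM (0.29, SE 0.06). Here mutant replicate 3 and control replicate 3 were both the low ones of their groups. The gene vito, or viriato, whose product helps nucleolar structure and acts with Myc in flies, was at 30.0, 32.0 and 31.9 against 28.6, 25.5 and 25.6 CPM (0.23, SE 0.07). Nopp140, a chaperone gene for snoRNPs, was at 518, 530 and 477 against 458, 472 and 438 CPM (0.16, SE 0.05) and did not pass, though its groups were separate.

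Of the 3 regulators of rDNA transcription and growth, 0 were called. Tif-IA, the initiation factor that links RNA polymerase I to growth signals, was at 233, 244 and 225 CPM in the mutant and 235, 246 and 242 in the control libraries (−0.05, SE 0.04). Myc was at 182, 171 and 182 against 176, 182 and 168 CPM (0.03, SE 0.04). In both the groups overlapped, and for Myc the sign turned without control replicate 3, at −0.0026. The gene udd, for a nucleolar protein of RNA polymerase I transcription needed in female germline stem cells, was at 23.0 ± 0.425 against 21.6 ± 0.242 CPM (0.09, SE 0.06), with separate groups and short of the threshold. Whether this role differed from the others was not tested.

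The RNA exosome trims ribosomal RNA precursors and degrades faulty RNA. Rrp4, one of its RNA-binding cap subunits, was at 63.9, 63.8 and 62.0 CPM in the mutant and 55.9, 53.6 and 54.2 in the control libraries (0.21, SE 0.04), with a clear gap between the groups. The other 3 did not pass: the cap subunit gene Rrp40 (0.11, SE 0.07), the ring subunit gene Rrp42 (0.12, SE 0.06) and the nuclear nuclease gene Rrp6 (0.14, SE 0.05). The groups of Rrp40 and Rrp42 overlapped and those of Rrp6 did not.

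**Figure D2:**
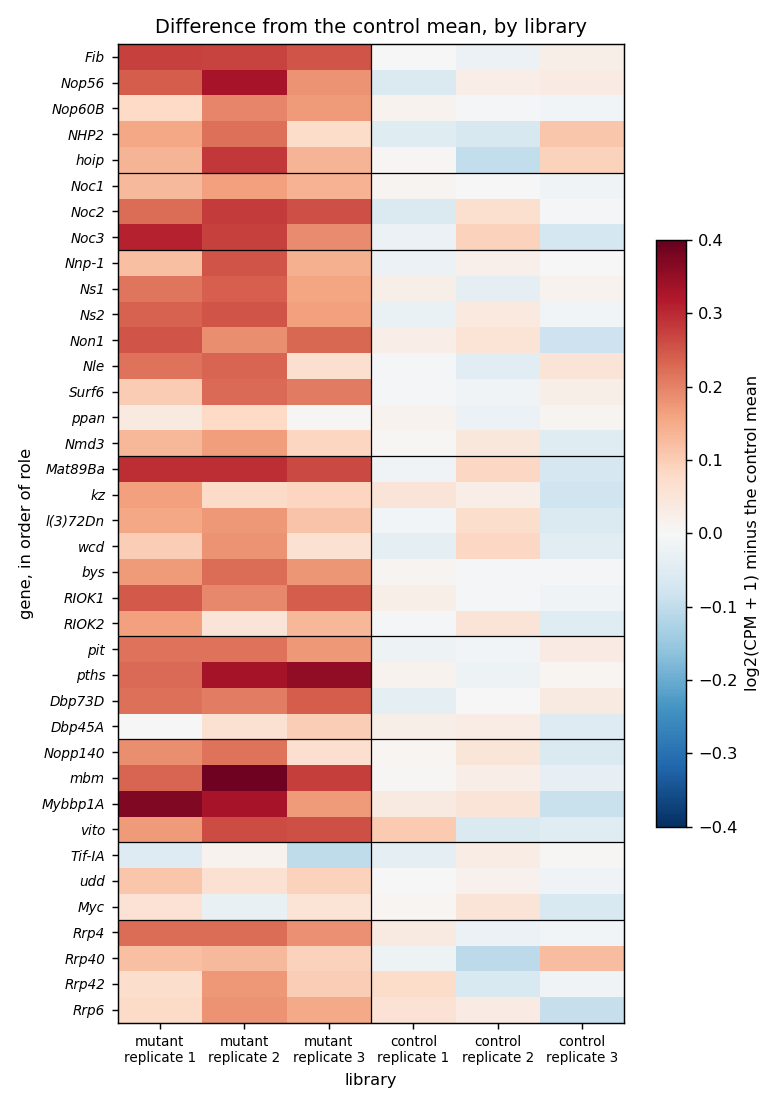
Difference of each factor (rows, in order of role) from its control mean in each library (columns), as log2 of CPM plus 1. Mutant columns are red for most rows, and mutant replicate 2 holds the highest value for 23 of the 38 genes.

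The shift was not the same in each mutant library. The median difference of the 38 genes from the control mean, on the scale of log2(CPM + 1), was 0.17, 0.22 and 0.15 in mutant replicates 1, 2 and 3. It was 0.0048, 0.02 and −0.01 in control replicates 1, 2 and 3. Mutant replicate 2 held the highest value for 23 genes, mutant replicate 1 for 11 and mutant replicate 3 for 3, while control replicate 3 held the lowest for 19. On the second principal component of all tested genes, which held 17.8% of the variance, mutant replicates 2 and 3 lay at opposite ends, at 12.6 and −11.6, with the other 4 libraries at −2.75 to 1.54. Without both replicates numbered 2, which leaves 2 libraries against 2 and was chosen after the data were seen, the median log2 fold change of the factors was 0.16 and 11 of the 38 were called.

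Leaving out any single library kept 15 of the 21 calls in all 6 fits. These were Dbp73D, Fib, Mat89Ba, Mybbp1A, Noc2, Non1, Nop56, Ns1, Ns2, RIOK1, Rrp4, bys, mbm, pit and pths. The call of Noc3 ended without control replicate 1, at a log2 fold change of 0.25. Those of Nnp-1 (0.13 to 0.18) and Surf6 (0.16 to 0.19) ended without mutant replicate 2 or any 1 control replicate. Noc1 (0.14 to 0.15) lost its call without each library but mutant replicate 3, Nop60B (0.12 to 0.16) without each but mutant replicate 1, and vito (0.21 to 0.26) without each but control replicate 1, with the values in brackets from the fits in which the call ended.

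Levels per length differed far more between the factors than between the groups. In CPM per kb of annotated exon, hoip was highest at 561 in control and 638 in mutant ovaries, followed by Nop60B at 278 and 308 and Non1 at 274 and 320. The lowest were kz at 19.0 and 20.5, Myc at 19.1 and 19.5 and udd at 21.9 and 23.3. Of the 38, 35 lay above the median level of all tested genes on this scale, and the median factor lay at the 77.8th percentile. Across the 38 genes, which share their 6 libraries, the rank correlation of log2 fold change with level percentile was 0.33 (Spearman), given as a description.

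**Figure D3:**
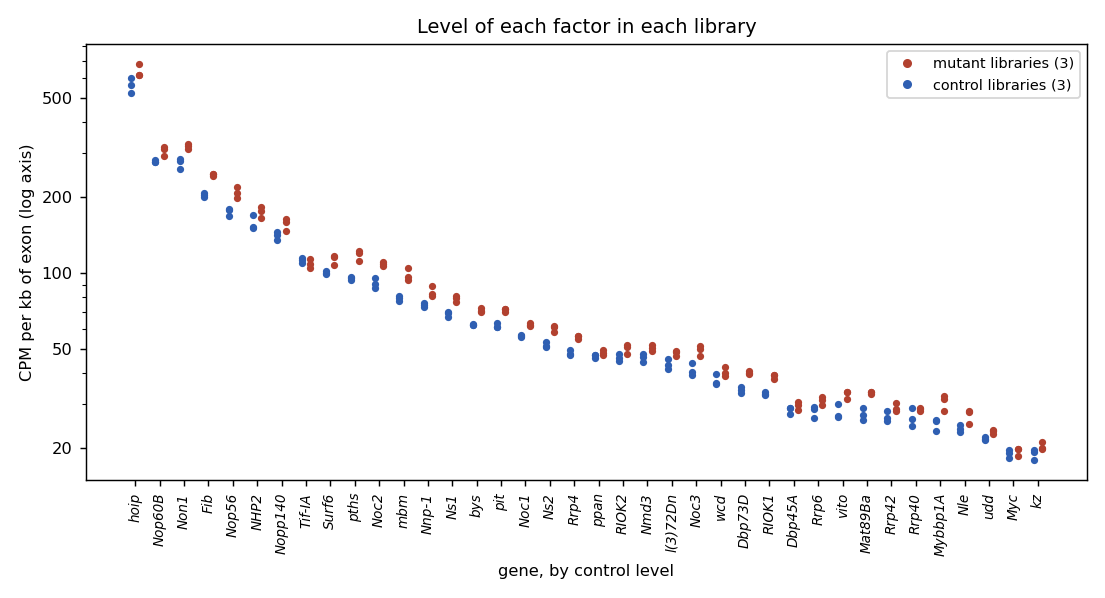
Level of each factor (x axis, ordered by control level) in CPM per kb of exon (y axis, log scale), with a point for each of the 3 mutant and 3 control libraries. The factors run from 561 CPM per kb for hoip to 19.0 for kz in control ovaries, and the mutant points lie slightly above the control points for most genes.

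The factor genes were spread over the genome, with 8 on 2L, 9 on 2R, 7 on 3L, 9 on 3R, 5 on X and 0 on chromosome 4. None lay within 2 Mb of Ipo9 on 3R, the nearest being Rrp6 at 3.47 Mb. Exon length ran from 607 bases for hoip to 9170 for Myc, with a median of 1843 beside 2150 over all tested genes. Fib, Nop60B, pths and pit hold annotated snoRNA genes within their bounds. Exons of 16 of the 38 overlap a gene on the opposite strand, and for the called Noc2, Ns2, Mat89Ba, pths and Mybbp1A the value is uncertain, since no source used here states whether the counting kept to 1 strand. The partner of pths, del, was itself called higher (0.17). The other 16 called factors had no such overlap.

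A second list of ribosome biogenesis genes was written from general knowledge of the pathway, also with earlier results of these libraries known. Most of its names matched no symbol or single synonym in the annotation and were left out, so it covers only part of the pathway. It kept 46 genes found in the annotation, and 45 had enough reads to be tested. Of these 45, 16 rose, 0 fell and 29 did not pass the threshold, which is 35.6% called higher beside 8.31% of all genes tested. Their median log2 fold change was 0.13, against −0.0033 over all genes tested. As for the first list, nothing is read from these differences. The second list is no independent check of the first, and the adjusted p-values of its genes are given as a description. Of the 45, the groups did not overlap in 29 with the mutant higher and in 2 with the mutant lower, Ns4 and TAF1B. Over all genes tested, 18.4% had mutant libraries above without overlap and 16.5% below. Without both replicates numbered 2, 8 of the 16 were called.

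**Figure D4:**
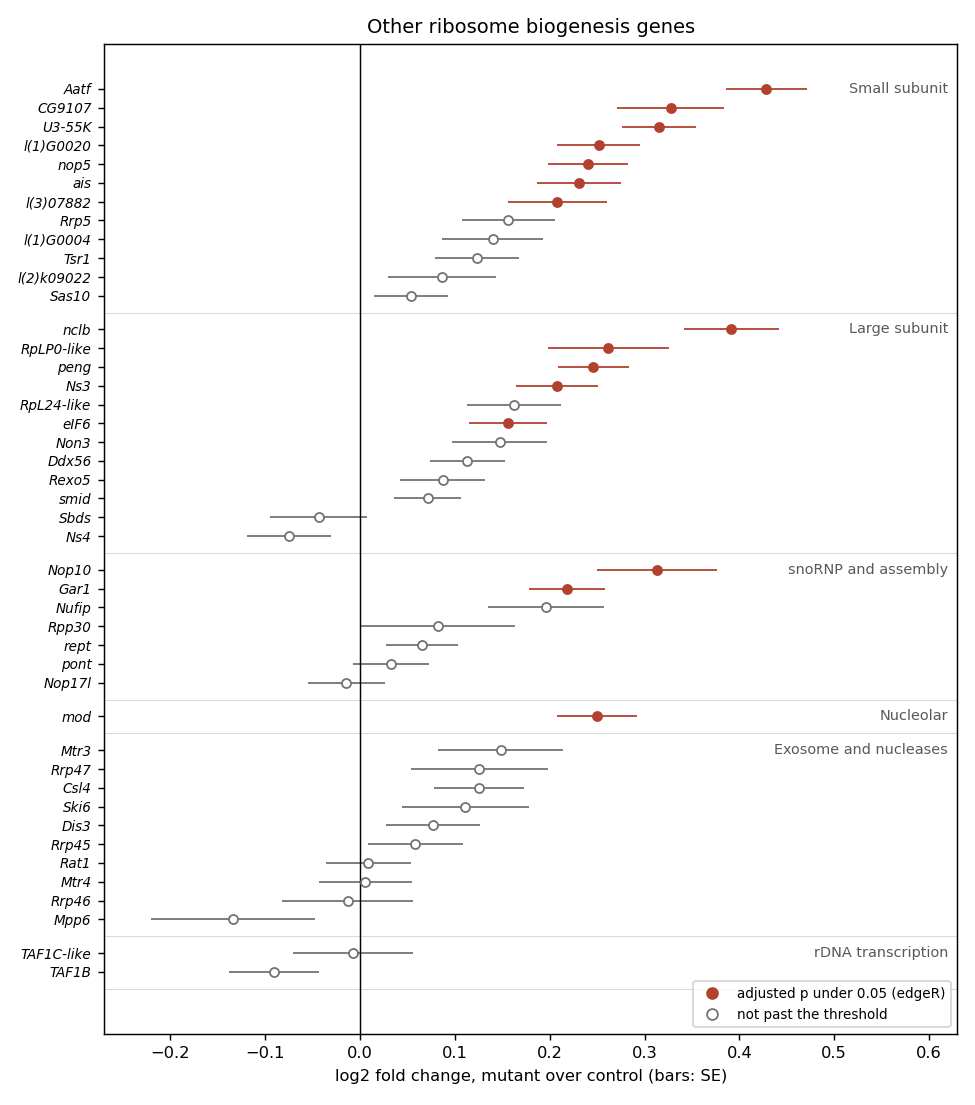
Log2 fold change (x axis, mutant over control) of 44 of the 45 tested ribosome biogenesis genes outside the first list (y axis, grouped by role), from 3 libraries per group; bars are standard errors, and filled points passed an adjusted p of 0.05 in edgeR. The 15 filled points lie between 0.16 and 0.43, and no gene on the left of 0 is filled.

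Small subunit genes had 7 of 12 called. Aatf, the relative of a human small subunit processome protein, rose most of the 45. It was at 78.6, 83.2 and 79.1 CPM in the mutant and 60.0, 58.8 and 60.2 in the control libraries, which is 0.43 on the log2 scale (SE 0.04; edgeR's adjusted p was 2.5e-04). Its mutant libraries were all far above the controls. U3-55K, a protein gene of the U3 snoRNP, rose from 80.5 ± 1.11 to 100.2 ± 2.10 CPM (0.32, SE 0.04, adjusted p = 8.2e-04 in edgeR). CG9107, listed under the synonym Rrp7, rose from 25.1 ± 0.668 to 31.5 ± 0.860 CPM, by 0.33 (SE 0.06), and nop5, a core box C/D gene, from 438 ± 6.28 to 518 ± 22.0 CPM, by 0.24 (SE 0.04). The acetyltransferase gene l(1)G0020 and the helicase gene ais, or Aramis, known for ribosome production in germline stem cell daughters, rose by 0.25 and 0.23 (SE 0.04 each). The edgeR adjusted p of these 4 lay between 0.00504 and 0.00837.

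For the large subunit, 6 of 13 rose. The gene nclb, for a WD-repeat nucleolar protein, was at 88.2, 90.9 and 81.1 CPM in the mutant and 65.2, 65.9 and 67.3 in the control libraries (0.39, SE 0.05, adjusted p = 9.4e-04 in edgeR). The lowest mutant library was well above the highest control. The gene peng, for the Pumilio-repeat protein Penguin, rose from 194 ± 5.01 to 230 ± 3.05 CPM (0.25, SE 0.04, adjusted p = 0.0027 in edgeR). The box H/ACA genes Gar1 and Nop10 rose by 0.22 (SE 0.04) and 0.31 (SE 0.06), and mod, or modulo, a nucleolar protein gene, rose from 1063 ± 15.9 to 1264 ± 48.6 CPM (0.25, SE 0.04, adjusted p = 0.00451 in edgeR).

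The exosome subunit and nuclease genes of this second list had 0 of 10 past the threshold in edgeR, DESeq2 and limma-voom, with a median of 0.07, and 2 of the 10 were higher at an unadjusted p under 0.05 in edgeR. Neither TAF1B (−0.09, SE 0.05) nor TAF1C-like (−0.0076, SE 0.06), relatives of human RNA polymerase I initiation factors, passed. The uncalled gene farthest from 0 was that of Nufip, a snoRNP assembly factor, at 0.20 (SE 0.06, adjusted p = 0.0595 in edgeR). Exons of peng, l(1)G0020, Nop10, RpLP0-like and the fly relative of yeast NOP14 overlap a gene on the opposite strand, which leaves their values uncertain. Over the single-library fits, 12 of the 16 calls were kept in all 6, among them Aatf, U3-55K, nclb, peng and mod. Nop10's call ended without control replicate 1 (adjusted p = 0.0513), and those of RpLP0-like, the fly relative of yeast NOP14 and eIF6 ended without 4, 4 and 5 of the libraries, at edgeR adjusted p of up to 0.100, 0.0881 and 0.126, each without control replicate 1.

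The ribosomal proteins are what these factors assemble with ribosomal RNA. Of 84 tested cytosolic ribosomal protein genes 49 were called higher in edgeR, beside 8.31% of all genes tested, and 0 lower, with a median log2 fold change of 0.19. DESeq2 called 66 of the 84 higher and limma-voom 49, and both called 0 lower. Their median difference from the control mean was 0.19, 0.24 and 0.12 in mutant replicates 1, 2 and 3 and −0.0021, −0.05 and 0.05 in control replicates 1, 2 and 3. Mutant replicate 2 was the highest for all 3 groups of ribosome genes, while replicate 1 lay above replicate 3 for the ribosomal proteins and the 38 factors and not for the second list, at 0.16 in replicate 2, 0.12 in replicate 3 and 0.12 in replicate 1. Mutant replicate 2 was highest for 66 of the 84, and control replicate 2 was lowest for 68. Calls among the ribosomal protein genes without both replicates numbered 2 are not given here. Of 7 RNA polymerase I subunit genes, Polr1B (0.23, SE 0.06) and Polr1C (0.20, SE 0.05) were called higher, beside 8.31% of all genes tested. The other 5 lay between 0.11 and 0.22. The 7 genes were chosen after values were seen, so nothing is read from this count. Exons of Polr1C overlap a gene on the opposite strand, which leaves its value uncertain.

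**Figure D5:**
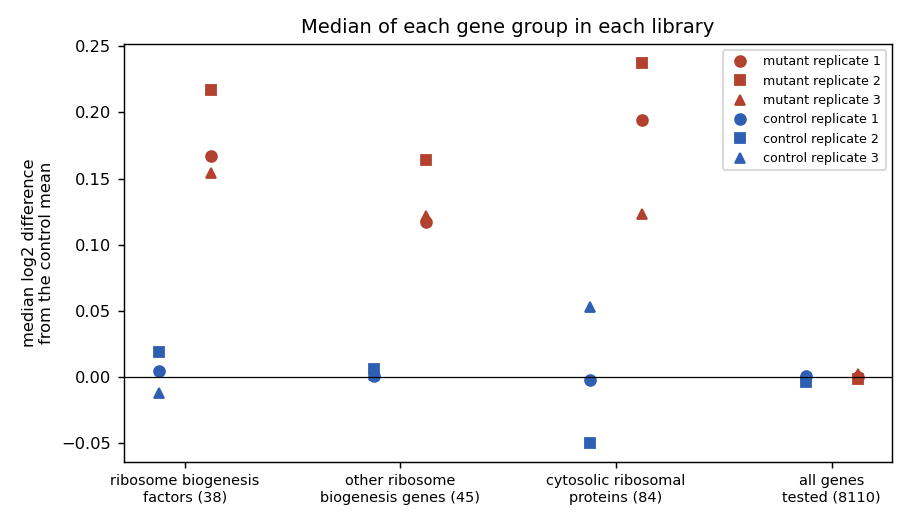
Median log2 difference from the control mean (y axis) in each of the 6 libraries for 4 gene groups (x axis); shapes give the replicate number and colours the group. The biogenesis factors lie at 0.15 to 0.22 in the mutant libraries. All tested genes lie within 0.0036 of 0 in every library, which the scaling between libraries largely sets.

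The factors process ribosomal RNA precursors, and the annotation used for the counts lists 4 precursor genes. The 3 on the rDNA scaffold were listed at 0 counts in every library, as were all the ribosomal RNA units listed on that scaffold. These values are therefore not read as a lack of precursor. On X, pre-rRNA:CR45856 was at 38.7, 121 and 73.5 CPM in the mutant and 12.9, 14.1 and 16.2 in the control libraries, or 2.43 higher on the log2 scale (SE 0.49), with 0.0397 as edgeR's adjusted p. The mutant libraries were all higher and spread widely, with mutant replicate 2 the highest. Its call ended without any single library but mutant replicate 1, at edgeR adjusted p between 0.0568 without mutant replicate 2 and 0.181 without control replicate 1. The call also held in DESeq2 and ended in limma-voom (adjusted p = 0.0969), with no composition factor (0.0511 in edgeR) and with no filter beyond 1 count (0.0723 in edgeR). Annotated within it, in the same direction, are 3 ribosomal RNA units, 18SrRNA-Psi:CR45861, 28SrRNA-Psi:CR45862 and 5.8SrRNA:CR40454. All 3 units were listed at 0 counts in every library. The 18S and 28S units are pseudogene copies by name. The libraries are of poly(A) RNA and rDNA copies are near-identical, so the value of pre-rRNA:CR45856 is uncertain. It is not a measure of the whole precursor. Whether the mutant ovaries held more ribosomal RNA precursor was not tested.

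The list of follicle cell and eggshell markers was lower in sum in the mutant libraries, and its genes did not share a direction. The 17 genes summed to 16885 to 20281 CPM in mutant and 22805 to 26596 in control libraries, without overlap. The sum rests largely on abundant genes of the eggshell and yolk. Of the 17, the chorion genes Cp36 (5133 to 3430 CPM) and Cp38 (8554 to 5603 CPM) fell and 0 rose, and the vitelline membrane gene Vm26Aa was at 3008 CPM in control and 2360 in mutant ovaries, short of the threshold. The log2 fold changes of 8 of the 17 were above 0, among them Cad99C (0.58), br (0.35) and tj (0.25), of which none passed. With the 19 chorion, vitelline membrane and yolk protein genes left out before scaling, an alternative added after the data were seen, 21 of the 38 factors and 16 of the 45 other genes were again called higher. The sums of the germline markers overlapped between the groups. Of 16 tested, 2 were called higher, aub (0.21) and grk (0.27), and 2 lower, vas (−0.16) and bam (−0.27). Over all genes tested, 8.31% were called higher and 6.20% lower. Whether a different mix of egg chamber stages took part in the shift was not tested.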

How the data were processed

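Ovary poly(A) RNA of 3 mutant and 3 control libraries was analysed. Libraries were made with a directional kit after TRIzol extraction, per the labels' protocols. The authors deposited unnormalized counts of reads per gene, with a table for each library. TopHat2, HTSeq and DESeq2 with the builds dm6 and BDGP6 are named, per the submitters' processing notes. No source used here names their versions or the strand setting. Of genes inside an exon of a gene averaging at least 1000 counts, 6 of 28 on the opposite strand and 0 of 38 on the same strand averaged 10 or more counts.

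Symbols came from the Ensembl BDGP6 annotation by ID for 17253 of 17559 genes and by position (reciprocal overlap of at least 90%) for 216. Genes passing filterByExpr (minimum count 10) numbered 8110, with 9449 set aside. TMM factors were 0.986 to 1.01. edgeR 4.0.16 in R 4.3.3 fitted a robust quasi-likelihood model without covariates, two-sided, with Benjamini-Hochberg adjustment over all tested genes. The common biological coefficient of variation was 6.63%. Standard errors are the log2 fold change over the root of the F statistic. CPM use TMM sizes, and levels per kb divide by the union of annotated exons.

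The members and lists were chosen with earlier results of these data known. The second list was matched by exact symbol or a single synonym, and names without a match, most of the list, were left out. Of its names, Nep1 and Dim1 belong to other genes in the annotation and were dropped. Every member is named. Values of every library are given for called members, the most abundant of each role, Myc and Tif-IA. From the second list, the called genes with the 12 smallest p and the uncalled gene with the greatest change are named by rule, except 1 that is not reported here, although it is in the counts. The other genes named, the RNA polymerase I subunits and the ribosomal RNA units were chosen after values were seen. Alternatives were DESeq2 1.42.0, limma-voom (limma 3.58.1), RLE in place of TMM factors, no composition factor, no filter beyond 1 count, 1 CPM in 3 libraries, a replicate block and each library left out. The scripts were tested on simulated counts. No sequences are shown.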

Additional observations from a re-analysis of the deposited data

How the results depend on the processing

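Settings compared first were RLE factors, no composition factor, DESeq2, limma-voom, no filter beyond 1 count and a filter of 1 CPM in 3 libraries. With these, 21 to 24 of the 38 factors and 16 to 19 of the 45 other biogenesis genes were called higher and 0 lower. The median of all tested genes stayed within 0.01 of 0, which the scaling between libraries largely sets. Leaving out each library in turn gave 16 to 24 and 12 to 18 calls, medians of 0.15 to 0.20 and 0.12 to 0.14, and over all genes 319 to 861 higher and 247 to 614 lower. Without both replicates numbered 2 these were 11, 8, 243 higher and 273 lower. Over the single-library omissions Myc ran from −0.0026 (without control replicate 3, the one change of sign) to 0.0567. Of 840 results of named genes under an alternative, 752 kept direction and side of the threshold, 73 lost a call, 14 gained one and 1 turned. Keeping the names Nep1 and Dim1 left 16 calls. The numbers shared between groups did not show as pairs in the counts. Same-numbered libraries had deviations correlated at −0.25, −0.22 and −0.12, and no library correlated best with its own number. This cannot settle whether same-numbered libraries were prepared together, which the labels do not say. With the replicate number as a block, 17 factors and 14 other genes were called, and 418 higher and 310 lower over all genes, and pre-rRNA:CR45856 lost its call (2.30 on the log2 scale, edgeR adjusted p = 0.0914). The cause of these changes was not tested. With 3 libraries a group, standard errors among the factors were 0.04 to 0.07, and the smallest difference called among them was 0.14.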

Other observations

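Beside the precursor gene on X, 9 other ribosomal RNA units had enough reads to be tested, most of them pseudogene copies, and these were chosen after their values were seen. In edgeR, DESeq2 and limma-voom 0 of the 9 passed the threshold, and 0 had an unadjusted p under 0.05 in edgeR. The 18S copy 18SrRNA-Psi:CR41602 was at 324, 468 and 254 CPM in the mutant and 237, 250 and 403 in the control libraries. The 28S copy 28SrRNA-Psi:CR45859 was at 328, 320 and 238 against 288, 333 and 526 CPM. In both, control replicate 3 was the highest of its group, and the groups overlapped. Reads from near-identical rDNA copies may be split among these units, so each value is uncertain.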
